A study of Arabidopsis thaliana with 4 samples.

Results

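The 7 genes MS2 (AT3G11980), ACOS5 (AT1G62940), PKSA (AT1G02050), PKSB (AT4G34850), CYP703A2 (AT1G01280), CYP704B1 (AT1G69500) and TKPR1 (AT4G35420) encode enzymes that make the precursors of sporopollenin in Arabidopsis thaliana. They were chosen by locus, and all 7 were found among the 23498 loci that had a value in at least 1 library. The series holds 4 libraries of uncapped, polyadenylated RNA. The 2 abh1 libraries came from plants of the Col-0 ecotype with a loss of function of ABH1, which with its small partner binds the cap of messenger RNA in the nucleus. The 2 libraries titled Col-0_CHX are labelled as wild type of the same ecotype. All 4 are labelled as immature inflorescence, harvested as buds from plants about 4 weeks old that were grown with 16 h of light and 8 h of dark. The labels leave CHX unexplained and also call the plants untreated. The abh1 titles carry different numbers, and whether these name alleles, lines or samples is not stated, nor is whether plants were pooled.

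Sporopollenin is the tough polymer of the exine, the outer wall of the pollen grain. Its lipid and phenolic precursors are made in the tapetum, the nurse cell layer of the anther, and are then moved to the developing microspores. In the accepted scheme a fatty acid is activated to its CoA ester by ACOS5, hydroxylated by CYP703A2 and CYP704B1, extended by the polyketide synthases PKSA and PKSB, and reduced by TKPR1 and its relative TKPR2, while MS2 reduces fatty acyl groups to fatty alcohols in the plastid. Loss of these enzymes disturbs the exine, to a degree that differs between them.

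Global mapping of uncapped transcripts (GMUCT) sequences RNAs from the end left bare when the cap is gone. The deposited value is the co-translational RNA decay index of each gene, a unitless ratio, and a gene without a value is not listed in that library's table. How the index is computed and how many reads a listing needs are not stated in the labels or files, so neither the meaning of an index above 1 nor the depth behind a value is known. The index is not a level of RNA. Simple ratios recur, which is presumed here to be a sign of low depth and was not tested. A value held by over 10 loci of its library is called repeated here. Of the loci listed in the abh1 libraries 27.2% and 29.3% had one, against 43.6% and 42.7% in the Col-0_CHX libraries. ABH1 itself was listed at 1.01 and 1.19 in abh1 and at 1.86 and 1.62 in Col-0_CHX, which does not check the genotype because the index is no level.

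Each of the 7 sporopollenin genes was listed in both abh1 libraries, whereas 2 of them, PKSA and TKPR1, were also listed in the Col-0_CHX libraries, each in both. ACOS5, CYP703A2, CYP704B1, PKSB and MS2 were listed in neither Col-0_CHX library. That is 5 of 7 (71.4%), where 16.2% of the 21858 loci found in the abh1 pair were listed in neither Col-0_CHX library and 78.0% were listed in both. Among the loci with no repeated value in abh1, 6.71% were listed in neither and 89.8% in both. The absence of genes of the flower and the tapetum from the Col-0_CHX tables was known when these 7 were chosen, so the count is a description. A missing value does not show less RNA, because depth and the rule for listing are not known. Nor can fewer cells of a type and less RNA per cell be told apart in a bulk sample.

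**Figure D1:**
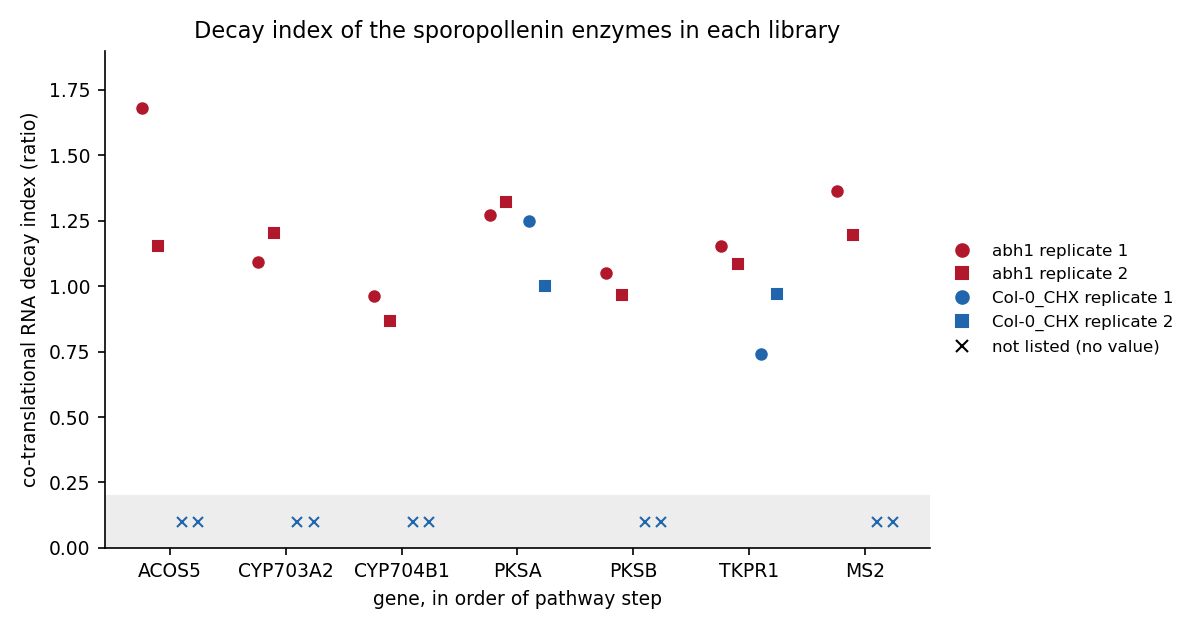
Decay index (vertical axis, a ratio) of the 7 sporopollenin genes, in order of pathway step, with 1 point per library. Red marks are abh1 and blue marks Col-0_CHX, circles are replicate 1 and squares replicate 2, and crosses in the grey band mark a gene that is not listed. The abh1 values lie between 0.866 and 1.68, and PKSA and TKPR1 are the only 2 with Col-0_CHX values.

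ACOS5, the acyl-CoA synthetase that opens the pathway, had index values of 1.68 and 1.15 in the abh1 pair and was not listed in Col-0_CHX. Its mean of 1.42 ± 0.373 (SD, n = 2) was the highest of the 7, and so was its spread. The difference of 0.54 between its abh1 libraries on the log2 scale was at least as large as at 82.0% of the 21858 loci. No other locus of the first library had its value there, while 7 loci, itself included, held the value of the second.

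CYP703A2, which hydroxylates medium-chain fatty acids within the chain, had 1.09 and 1.20 in abh1, a mean of 1.15 ± 0.0770 (SD, n = 2). CYP704B1, which hydroxylates the end of long-chain fatty acids, had 0.961 and 0.866 in abh1, a mean of 0.913 ± 0.0675 (SD, n = 2). Both CYP704B1 values lay below both CYP703A2 values, with a ratio of geometric means, CYP703A2 over CYP704B1, of 1.26. CYP704B1 was the only gene of the 7 with an index below 1 in both abh1 libraries. Among the loci of the abh1 pair an index of 1 stood at percentiles 25.4 and 25.8, so values below 1 were not rare. The first CYP703A2 value was held by 18 loci, which made it the only repeated value among the 14 abh1 values of the 7 genes.

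PKSA and PKSB, the polyketide synthases also known as LAP6 and LAP5, act at the same step. PKSA had 1.27 and 1.32 in abh1, a mean of 1.30 ± 0.0340 (SD, n = 2), the smallest SD of the 7. PKSB had 1.05 and 0.968 in abh1, a mean of 1.01 ± 0.0580 (SD, n = 2). The abh1 values of this pair did not overlap, with a ratio of geometric means, PKSA over PKSB, of 1.29. The difference between PKSA and PKSB was not tested. PKSA was listed in both Col-0_CHX libraries and PKSB in neither.

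TKPR1, the tetraketide alpha-pyrone reductase, had 1.15 and 1.09 in abh1, a mean of 1.12 ± 0.0479 (SD, n = 2). MS2, the fatty acyl reductase, had 1.36 and 1.19 in abh1, a mean of 1.28 ± 0.119 (SD, n = 2). Both abh1 values of MS2 were above both of TKPR1.

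By their means the 7 ran ACOS5, PKSA, MS2, CYP703A2, TKPR1, PKSB and CYP704B1. Neighbours in this order overlapped between libraries from ACOS5 down to TKPR1, so the order of these 5 is not settled step by step. PKSB lay below the 5 in both libraries, and CYP704B1 below PKSB. Of the 21 pairs among the 7 genes, 14 had values that did not overlap, and 4 of the 7 overlapping pairs involved ACOS5. No difference between genes was tested. The share of such pairs over all loci was not computed, so the count describes these 7 genes alone. Whether the index depends on the length of a gene is not known, so these are orders of the index as deposited. The index was higher in the first abh1 library for 5 genes and in the second for PKSA and CYP703A2.

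**Figure D2:**
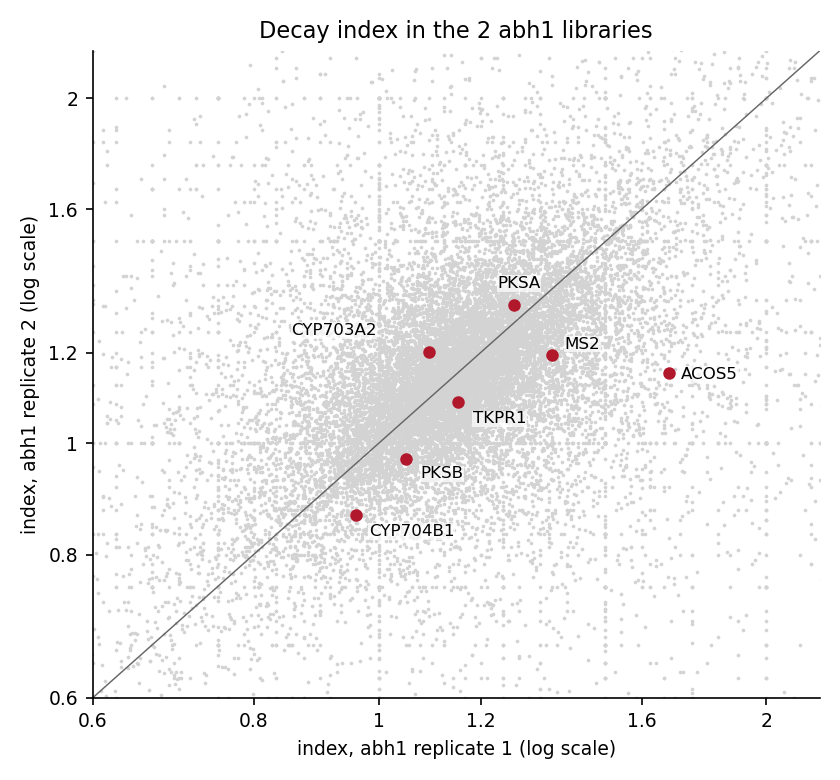
Decay index of each locus in abh1 replicate 1 (horizontal) and abh1 replicate 2 (vertical), both on log axes. Grey dots are loci listed in both, loci outside the window are not shown, red points are the 7 genes and the line marks equal values. CYP704B1 (0.961 and 0.866) lies lowest and ACOS5 (1.68 and 1.15) lies farthest from the line.

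Against all loci of the same libraries the 7 genes lay around the middle. Their median index was 1.15 in both abh1 libraries, and that of the 21858 loci was 1.14 in both. On the log2 scale the median of the 7 relative to the library median was 0.013 and 0.020. The SD of the log2 index across the 7 genes was 0.27 and 0.21, against 0.52 in both libraries for all loci and 0.36 and 0.37 for loci without repeated values in abh1, and this difference was not tested. The median absolute difference between the 2 abh1 libraries was 0.14 on the log2 scale for the 7 genes and 0.18 for all loci. It was 0.46 for the 3538 loci that, as most of these genes, were listed in the abh1 pair but absent from both Col-0_CHX tables, and 0.12 for the loci without repeated values in abh1. Of the 14 abh1 values of the 7 genes, 11 were held by no other locus.

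Each gene's abh1 index was then tested against the median locus of its library. The log2 index relative to the library median, averaged over the 2 abh1 libraries, was 0.29 ± 0.19 (SE) for ACOS5, 0.19 ± 0.073 (SE) for PKSA and 0.16 ± 0.092 (SE) for MS2. CYP703A2 (0.0092 ± 0.085, SE) and TKPR1 (-0.026 ± 0.075, SE) were close to the median. PKSB had -0.18 ± 0.079 (SE) and CYP704B1 -0.32 ± 0.085 (SE), 0.800 times the median locus. In limma's moderated test with Benjamini-Hochberg adjustment over the 21858 loci none of the 7 passed, with adjusted p from 0.310 for CYP704B1 to 0.962 for CYP703A2. The test called 0 loci in all (0.00%), with a smallest adjusted p of 0.250, and 3511 loci had an unadjusted p under 0.05. CYP704B1 was the only gene of the 7 among those (unadjusted p = 0.0487 in limma's test), and 1 of 7 is no larger a share than 3511 of 21858.

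PKSA and TKPR1 allowed a comparison of the 2 kinds of library. PKSA had 1.27 and 1.32 in the abh1 pair against 1.25 and 1 in the Col-0_CHX pair. TKPR1 had 1.15 and 1.09 in the abh1 pair against 0.74 and 0.969 in the Col-0_CHX pair. For both genes each abh1 value was above each Col-0_CHX value, by a small margin at PKSA, where the lower abh1 value, 1.27, stands against the higher Col-0_CHX value, 1.25. Over the 17049 loci listed in all 4 libraries, both abh1 values were above both Col-0_CHX values at 10.7%, and below them at 45.2%. The Col-0_CHX values of PKSA were held by 210 and 485 loci of their libraries. Those of TKPR1 were held by 1 and 10 loci.

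Neither difference passed the test. On the log2 scale, abh1 minus Col-0_CHX was 0.21 ± 0.18 (SE) for PKSA, a 1.16-fold higher index, with a 95% interval of -0.30 to 0.73 and an adjusted p of 0.549 in limma's test. For TKPR1 it was 0.40 ± 0.20 (SE), a 1.32-fold higher index, with a 95% interval of -0.17 to 0.97 and an adjusted p of 0.352 in limma's test. The test called 0 of the 17049 loci (0.00%), with a smallest adjusted p of 0.167 and 3422 loci at an unadjusted p under 0.05. The median locus was lower in abh1, with a difference of -0.23, and 27.8% of loci had a difference above 0. Relative to that median PKSA was at 0.44 and TKPR1 at 0.63. The index of TKPR1 stood at percentiles 52.2 and 40.4 of the abh1 libraries and at percentiles 7.46 and 18.0 of the Col-0_CHX libraries. PKSA stood at percentiles 71.0 and 77.0 in abh1 and at 40.1 and 20.8 in Col-0_CHX. These percentiles rest on unlike sets, the loci listed in both abh1 libraries and all loci listed in each Col-0_CHX library. The difference ran from 0.054 to 0.38 for PKSA when 1 library was left out, lowest without Col-0_CHX replicate 2 and highest without Col-0_CHX replicate 1. For TKPR1 it ran from 0.21 without Col-0_CHX replicate 1 to 0.60 without replicate 2. The mutation and the CHX in the other titles vary together and cannot be told apart. The labels do not say that replicates are separate plants, and p-values therefore reflect the spread between libraries alone, which may be technical.

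Other genes of the pollen wall were also often missing from the Col-0_CHX tables. TKPR2, which acts beside TKPR1 on tetraketide alpha-pyrones, had 1.65 and 1.26 in the abh1 pair against 5.5 and 0.944 in the Col-0_CHX pair, so that its groups overlapped. Both of these Col-0_CHX values were repeated, held by 38 and 19 loci. ABCG26, the transporter linked to export of sporopollenin precursors from the tapetum, had 1.24 and 1.56 in abh1 and was not listed in Col-0_CHX. Of 21 other genes of sporopollenin, the exine and the pollen coat, all 21 were listed in the abh1 pair, and 14 (66.7%) were in neither Col-0_CHX table and 6 (28.6%) in both. The 6 were TKPR2, ABCG31, LAP3, DEX1, NEF1 and NPU. SHT, an acyltransferase that makes spermidine conjugates of the pollen coat, was listed in 1 Col-0_CHX library, at 0.818, a value held by 13 loci.

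Among the 6, NEF1 and NPU had values that few loci shared. NEF1, needed for exine formation, had 1.46 and 1.21 in the abh1 pair against 1.43 and 1.60 in the Col-0_CHX pair. NPU, needed for the primexine, the scaffold on which sporopollenin is laid down, had 1.41 and 1.44 in the abh1 pair against 1.92 and 1.55 in the Col-0_CHX pair. LAP3, a protein needed for a normal exine, had 1.35 and 1.13 in the abh1 pair against 0.417 and 1.17 in the Col-0_CHX pair. The Col-0_CHX values of LAP3 were held by 14 and 132 loci. None of the 6 passed limma's test, 5 had a difference below 0, and their median was -0.29 on the log2 scale against -0.23 over all 17049 loci.

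Regulators of the tapetum were mostly missing from the Col-0_CHX tables too. AMS, a transcription factor required for tapetum function and for expression of sporopollenin genes, had 1.03 and 1.03 in abh1 and was not listed in Col-0_CHX. MYB80, a later factor of the same cascade, had 1.29 and 1.55 in abh1 and no Col-0_CHX value. All 12 tapetum regulators examined were listed in the abh1 pair, and 11 (91.7%) were in neither Col-0_CHX table. The exception was TPD1, a secreted protein that specifies the tapetum, with 1.19 and 1.58 in the abh1 pair against 2.2 and 0.773 in the Col-0_CHX pair, all 4 of them repeated values.

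Lists of genes linked to other tissues were set beside these counts. Of 14 floral organ genes, all 14 were listed in the abh1 pair, 0 in both Col-0_CHX tables and 11 in neither, with AG, SEP1 and SHP1 in 1 each. The labelled tissue, immature inflorescence, thus had its floral markers in the abh1 tables and mostly lacked them in the Col-0_CHX tables. Of 10 pollen and male germline genes, 8 were listed in the abh1 pair, and ACT11 and TUA1 (2 of 10) in the Col-0_CHX pair. All 6 genes of the leaf list (PR1, PR2, PR5, WAK1, LOX2 and FRK1) were listed in all 4 libraries. Over all loci of the abh1 pair, 78.0% were in both Col-0_CHX tables. The 6 include defence genes and were listed in abh1 as well, so they do not tell leaf from inflorescence. Of 8 root genes, 5 were listed in the abh1 pair. Of these 1 was in both Col-0_CHX tables, 1 in a single table and 3 (60.0%) in neither, beside 71.4% of the sporopollenin genes. The 3 were COBL9, IRT1 and PYK10. Repeated abh1 values were found at PYK10 in both libraries (held by 16 and 352 loci) and at IRT1 in the second (352 loci), and COBL9 had none. Of the 14 abh1 values of the sporopollenin genes, 1 was repeated. NRT2.1 was listed in the Col-0_CHX pair alone. The part of tissue or of depth in the missing sporopollenin values was not tested.

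**Figure D3:**
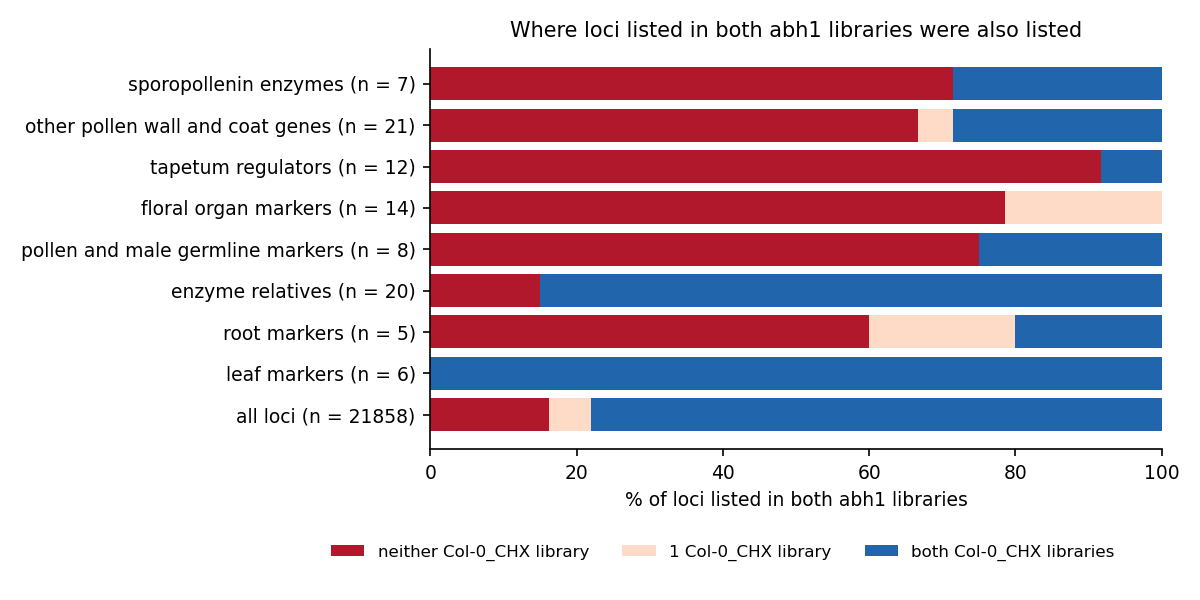
Share of the loci of the abh1 pair (horizontal axis, percent) that were listed in neither (red), 1 (pale) or both (blue) Col-0_CHX libraries, for each gene list and for all loci, with the number of loci beside each name. The sporopollenin enzymes (71.4% in neither) lie beside the other anther and flower lists and the root markers (60.0% of 5 loci), while the enzyme relatives (15.0% in neither) lie beside all loci (16.2%).

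Enzymes of the same kinds as the 7, called relatives here whether or not they share a family, were listed in Col-0_CHX about as often as other genes. Of 23 relatives, 20 were listed in the abh1 pair, and of these 17 (85.0%) also in the Col-0_CHX pair and 3 (15.0%) in neither table of it. For ACOS5, all 4 CoA ligases examined (4CL1, 4CL2, 4CL3 and OPCL1) were listed in all 4 libraries. The phenylpropanoid enzyme 4CL1 had 0.966 and 1.30 in the abh1 pair against 1.47 and 2.5 in the Col-0_CHX pair, values held there by 8 and 206 loci. For PKSA and PKSB, the related chalcone synthase TT4, which opens flavonoid synthesis, had 1.04 and 1.07 in the abh1 pair against 1.11 and 1.31 in the Col-0_CHX pair. The other polyketide synthase counted, AT4G00040, was lower in abh1, at 0.581 and 0.617. It had 1.83 and 0.188 in the Col-0_CHX pair, values held there by 84 and 3 loci.

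The P450 relatives CYP704A2, CYP86A2, CYP86A4 and CYP86A8 were listed in all 4 libraries, and CYP704A1 in abh1 replicate 2 alone. CYP86A4, a fatty acid hydroxylase of cutin synthesis, had 1.23 and 1.26 in the abh1 pair against 1 and 0.5 in the Col-0_CHX pair, values held there by 468 and 375 loci. For TKPR1, the reductases DFR, CCR1, CCR2 and CAD5 of flavonoid and lignin synthesis were listed in all 4 libraries, and BAN in none. The family of MS2 was the least even. FAR1, CER4 and FAR5 were listed in all 4 libraries, FAR4, FAR6 and FAR7 in the abh1 pair alone, and FAR8 in abh1 replicate 1 and both Col-0_CHX libraries. FAR1, which makes fatty alcohols of suberin, had 1.24 and 1.21 in the abh1 pair against 1.22 and 1.31 in the Col-0_CHX pair. CER4, which makes primary alcohols of the surface wax, had 1.10 and 1.06 in the abh1 pair against 2.5 and 0.25 in the Col-0_CHX pair. These Col-0_CHX values of CER4 were held by 201 and 122 loci.

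**Figure D4:**
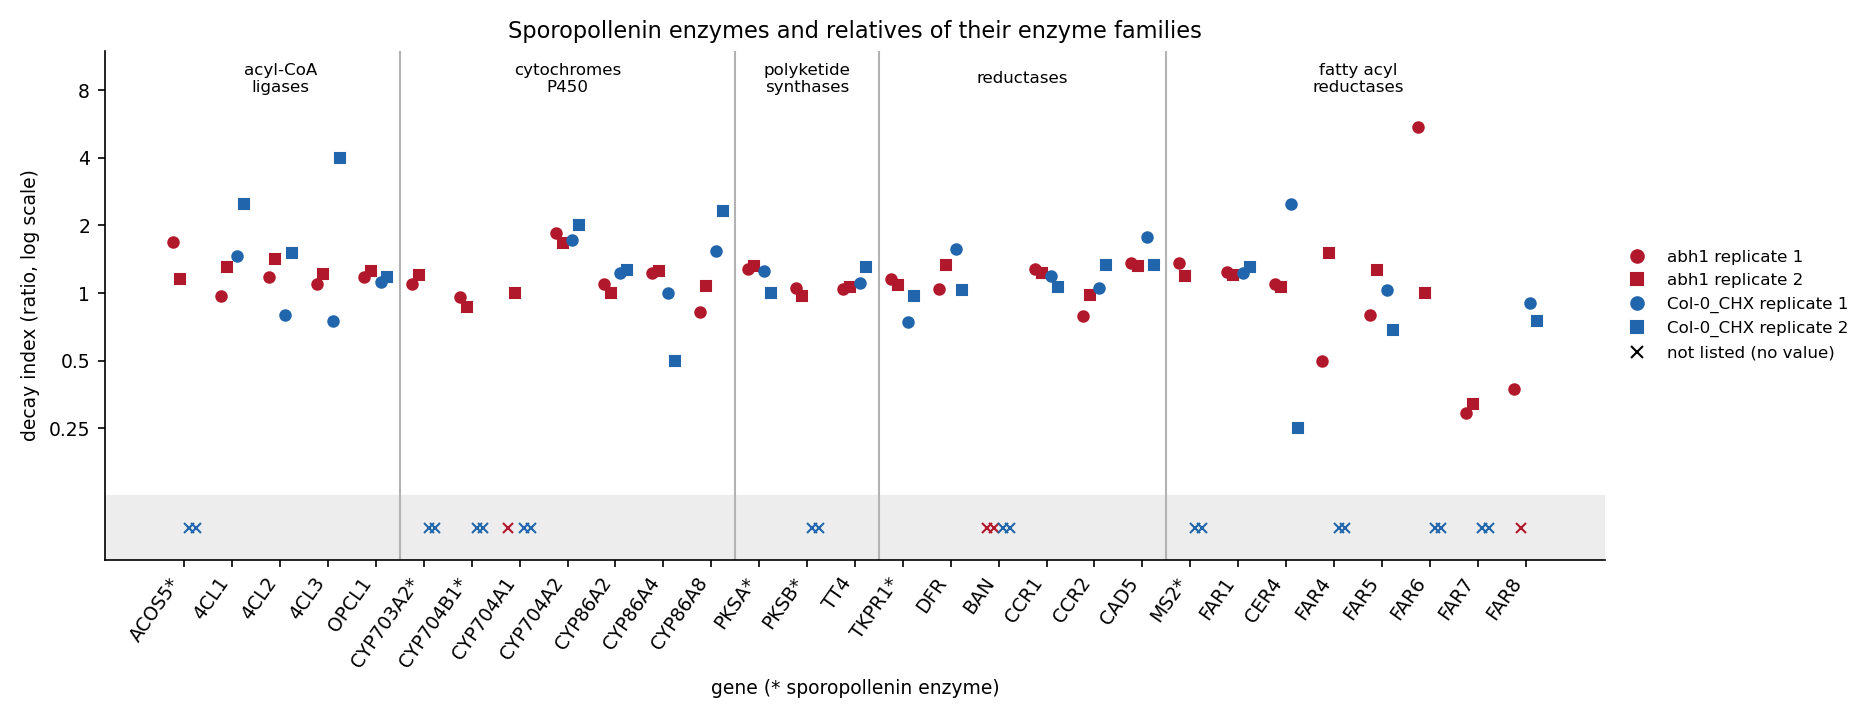
Decay index (vertical log axis, a ratio) in each library for the 7 sporopollenin enzymes (starred) and their relatives, grouped by kind of enzyme. Not every relative counted in the text is shown, and of the polyketide synthases among them 1 is shown. Red marks are abh1, blue marks Col-0_CHX, circles replicate 1, squares replicate 2, and crosses in the grey band mark values that are not listed. All 4 relatives of ACOS5 have Col-0_CHX values while ACOS5 has none, and MS2 lacks them, as do 3 of its 7 relatives.

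In the abh1 libraries these relatives had medians of 1.10 and 1.22, and the tapetum regulators 1.30 and 1.19, against 1.15 in both libraries for the 7 genes. No gene of these lists passed limma's test of the abh1 index against the library median. The 3 loci of the tapetum and pollen wall lists closest to the median of the 7, by Euclidean distance over the log2 indices of the 2 abh1 libraries, were QRT3, EXL4 and CYP98A9. QRT3, a polygalacturonase that frees the microspores from each other, had 1.15 and 1.18. EXL4, a lipase of the pollen coat, had 1.15 and 1.19. CYP98A9, which acts on the phenolic conjugates of the pollen coat, had 1.21 and 1.18. With 2 libraries such closeness is common, and 304 loci of the 21858 were at least as close as QRT3.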

How the data were processed

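Strand-specific reads of 50 nt were taken from polyA-selected GMUCT libraries, per the labels' protocols. The processing notes of the submitters name cutadapt 1.4.2, STAR 2.4.0 and the genome TAIR10. The authors deposited 1 table per library of gene models with a linear ratio, the co-translational RNA decay index, for 22495 and 22492 loci in abh1 and 18321 and 18215 in Col-0_CHX. Formula and depth are not given in the sources, and no counting interval was made. Replicates held identical values at 0.737% (abh1) and 0.736% (Col-0_CHX) of their common loci and were kept as separate libraries.

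The log2 of each index was taken without a pseudocount. Loci in all 4 libraries were tested for abh1 minus Col-0_CHX with limma 3.58.1 in R 4.3.3 (lmFit, eBayes, Benjamini-Hochberg adjusted p under 0.05), without covariates. Loci in both abh1 libraries were tested after centring each library on its median. Python 3.11.15 with pandas 2.3.3, numpy 2.4.6 and matplotlib 3.10.9 did the rest. Names of the 101 list loci were compared with a RefSeq table of TAIR10.1, used for names and neighbours only. It held the name used for 93 and gave PKSA and PKSB the symbols LAP6 and LAP5. Loci without a symbol there are counted, a few with their values, but their functions are not described.

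The 7 genes and all lists were chosen with earlier results of these data known. Named by rule were the 7, list genes with a Col-0_CHX value, a few set regulators and relatives, and the 3 loci closest to the median of the 7. Other genes of small counts were named after their values were seen. The alternatives were a replicate block, each library left out, other scalings, loci without repeated values, robust fitting and a threshold of 0.1.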

Additional observations from a re-analysis of the deposited data

How the results depend on the processing

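With only loci that had no repeated value, limma's test called 567 of 6572 loci between abh1 and Col-0_CHX and 210 of 13953 loci against the library median in abh1, where all loci gave 0. Fewer loci were tested there, and those left out hold the recurring simple ratios. Of the 7 genes, only TKPR1 was among the 6572 (adjusted p = 0.181 in limma's test), and 6 were among the 13953, with adjusted p from 0.132 for CYP704B1 to 0.826 for TKPR1, so none was called. Both counts were 0 under every other alternative run, 0 to 0 with each library left out of the contrast. Leaving an abh1 library out of the level fit leaves 1 library and no test. The numbers 1 and 2 pair nothing that the labels name, and deviations of same-numbered libraries correlated at -0.0043 over loci. With the replicate block the count was 0, with a smallest adjusted p of 0.345. Without centring, PKSB turned to 0.012 and TKPR1 to 0.16 above an index of 1 on the log2 scale, and the median of the 7 was 0.21. It was 0.061 relative to loci listed in abh1 and not in Col-0_CHX, and 0.013 to 0.020 with an abh1 library left out. Counting only values held by at most 10 loci, 1 of the 7 genes, TKPR1, was listed in both Col-0_CHX libraries, in place of 2, and 6 in both abh1 libraries. Leaving out either library of a group kept 7 to 7 listed in abh1 and 2 to 2 in Col-0_CHX. No depth is known, so a missing value does not show an absent RNA.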

Other observations

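The protein-coding loci next to the 7 genes on either side were listed about as often as loci in general. All 14 neighbours were listed in the abh1 pair. Of these, 10 (71.4%) were in both Col-0_CHX tables, 2 in 1 and 2 (14.3%) in neither, where 78.0% of all loci of the abh1 pair were in both and 16.2% in neither. Around PKSA, which was listed in both Col-0_CHX tables, AT1G02040 was in neither and AT1G02060 in 1. Around CYP704B1, which was in neither, both neighbours were listed in all 4 libraries. NAP, a NAC factor of leaf senescence on one side, had 1.26 and 1.03 in the abh1 pair against 2.04 and 2.14 in the Col-0_CHX pair, and AT1G69510 on the other side had 0.951 and 0.953 in abh1 libraries against 1.04 and 0.824 in those of Col-0_CHX. Neighbours were read from the order of genes in the RefSeq table of TAIR10.1.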
